A study of Homo sapiens with 8 samples.

Results

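The regions described here carried an ATAC-seq peak at the mesoderm stage of cardiac differentiation and at no other stage measured. The peaks of 8 libraries were merged into 285853 regions on chromosomes 1 to 22 and X, and a region was counted as MES-only when both mesoderm libraries had a peak in it and none of the other 6 libraries did. This held for 7901 regions, which are 2.76% of all merged regions and 8.81% of the 89654 regions with a peak in both mesoderm libraries. By the same rule 8597 regions (3.01%) were private to ESC, 2083 (0.729%) to CP and 3000 (1.05%) to CM. The number rests on both MES lists, since it was 33296 without MES replicate 1, 14590 without MES replicate 2 and 3945 with all lists cut to the length of the shortest.

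Every library was made from 1 established line of human embryonic stem cells, RUES2, differentiated as a monolayer, with 2 libraries per stage. ESC libraries were taken at day 0, after a day in low CHIR-99021, a GSK3 inhibitor that activates Wnt signaling, so that the day 0 cells had already met this drug. MES libraries were taken at day 2, after 2 days in a higher concentration of CHIR-99021 in serum-free medium. CP cells (day 5) had further received Xav-939, a Wnt inhibitor, from day 3, and CM cells (day 14) had then been grown without either drug. No step that sorted the cells is stated for these libraries, although the study's methods kept only day 14 preparations with a minimum share of cells positive for cardiac troponin T. The libraries are bulk, and fewer cells with an open region cannot be told apart from less opening per cell.

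ATAC-seq marks DNA that is not wrapped tightly enough to keep the Tn5 transposase out. Such sites are mostly promoters and enhancers, the latter being short stretches bound by transcription factors that act on genes at a distance. In the embryo, Wnt, NODAL and BMP signals induce the primitive streak, whose cells switch on the T-box factors TBXT (Brachyury) and EOMES and the homeobox factor MIXL1, lose E-cadherin and move inward as mesoderm and definitive endoderm. These factors are expressed for a short time and give way to factors of the later lineages, such as those of the heart.

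Strength is given as the fold of the read pileup over the local background, with 1 added to both, which lowers the fold most where the background is low, and as the −log10 q of the peak, both computed by the authors' peak caller for each library on its own. The 8 lists held 55777 to 156179 peaks, and a site needed a pileup of 10 to 15 reads to be called at the mean background of its library. The shortest list was that of CM replicate 2 and the longest that of MES replicate 2, and ESC replicate 2 (156117 peaks) was as long as the latter. The peaks at the promoters of TBXT, MIXL1 and EOMES had their highest −log10 q in the MES libraries, at 34.7 and 47.2, 50.7 and 64.7, and 41.4 and 42.6 in replicates 1 and 2. By fold, MIXL1 was again highest in both MES libraries, but EOMES was at 4.8 and 4.69 there against 5.90 in CM replicate 2, and TBXT was at 4.88 in MES replicate 1 against 5.33 in ESC replicate 1. Each of these promoters also had a peak in all 6 other libraries, and the promoters of MESP1 and TBX6 were not highest in MES. MSGN1, a presomitic mesoderm factor, had no promoter peak in CM, and MYH6, a heart muscle myosin, had none in ESC or MES. The other heart muscle genes looked at, TNNT2, MYL7, ACTN2 and NKX2-5, had promoter peaks in both MES libraries. At ACTN2 the −log10 q was higher in MES (52.1 and 67.3) than in CM (44.6 and 31.5). The promoters of FOXA2 and HHEX, endoderm factors, also had their highest −log10 q in MES (30.3 and 41.4, and 31.3 and 38.3), although the fold of HHEX was higher in CP replicate 2, and their part in the MES-only regions was not tested.

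Examples of MES-only regions are shown first by their sequence, 75 bases on either side of the summit, from hg38. The regions are those of highest −log10 q nearest to TBXT and EOMES, the streak factors, and 2 of the strongest 10 of the genome. Capitals mark letters that match a GATA site (AGATAAG) in the TBXT region, a T-box site (AGGTGTG, here on the opposite strand as CACACCT) in the H3Y1 region and a forkhead site (TGTTTAC) in the FAT4 region. The EOMES region held none of the 6 consensus sequences marked here (the other 3 were those of TCF/LEF, homeobox and FOXH1).
TBXT (chr6:166223222-166223372, plus strand): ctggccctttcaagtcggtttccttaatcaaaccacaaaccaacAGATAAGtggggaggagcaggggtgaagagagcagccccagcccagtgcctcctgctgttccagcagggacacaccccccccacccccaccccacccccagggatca
EOMES (chr3:27861220-27861370, plus strand): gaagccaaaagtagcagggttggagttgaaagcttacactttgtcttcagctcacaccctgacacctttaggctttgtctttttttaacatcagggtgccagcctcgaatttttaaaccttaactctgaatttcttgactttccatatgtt
FAT4 (chr4:125790393-125790543, plus strand): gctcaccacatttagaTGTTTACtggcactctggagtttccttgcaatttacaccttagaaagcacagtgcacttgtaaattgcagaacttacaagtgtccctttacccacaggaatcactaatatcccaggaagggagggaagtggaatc
H3Y1 (chr5:17892045-17892195, plus strand): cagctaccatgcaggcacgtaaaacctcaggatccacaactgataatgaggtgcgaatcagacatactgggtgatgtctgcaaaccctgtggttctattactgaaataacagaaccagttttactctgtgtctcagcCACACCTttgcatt
The TBXT region lay between genes, 54.6 kb from the nearest TBXT transcription start site (TSS), with a −log10 q of 26.7 and 33.9 in MES replicates 1 and 2. The EOMES region lay between genes, 139 kb from the TSS, with 33.3 and 50.9. MIXL1 had a MES-only region 4.93 kb from its TSS, with 7.71 and 9.76, below the median of the set in both libraries. WNT3, a ligand of the streak, had one in an intron, 4.53 kb from the TSS, with 22.4 and 20.7. MESP1 and TBX6 had no MES-only region nearest to them.

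The MES-only regions were weaker than the regions that MES shared with other stages. Their median fold over background was 4.58 in MES replicate 1 and 5.06 in replicate 2, with 90% of regions between 3.11 and 7.46 and between 3.24 and 8.80. The median −log10 q was 8.51 and 12.3. The 81753 regions shared with at least 1 other library had median folds of 5.65 and 6.42 and a median −log10 q of 15.2 and 22.4. The median width was 336 bp for MES-only, 567 bp for shared and 326 bp for all merged regions. A shared region joins the peaks of more libraries, which widens it by construction, so these widths do not compare the peaks themselves. The other private sets were of like strength, at median folds of 4.60 and 4.64 for ESC-only, 3.98 and 4.79 for CP-only and 4.57 and 5.09 for CM-only regions in their own replicates 1 and 2.

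Both MES libraries ranked the regions alike but not closely. Spearman's rho of the fold between the MES replicates was 0.660 over the 7901 MES-only regions and 0.854 over the shared ones, a description across regions, which are not independent replicates. The fold was higher in replicate 2 for 5199 regions (65.8%). Of the regions of replicate 1, 86.0% also had a peak in replicate 2, and 59.2% in the reverse direction. A further 31561 regions had a peak in 1 MES library and nowhere else, 25169 of them in replicate 2.

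A missing peak is a site below threshold, not a closed site. At the mean background of each of the other 6 libraries, the lowest fold that was called ranged from 2.79 (CP replicate 2) to 3.11 (CM replicate 2). The weaker of the 2 MES folds was at or above that level for 93.3% of the MES-only regions in CM replicate 2 and for 97.5% in CP replicate 2. At the mean background, a peak in MES itself needed a fold of 3.17 in replicate 1 and 2.63 in replicate 2. These shares thus follow largely from the rule, and why a peak was missing elsewhere was not tested. Just outside the rule, 7166 regions had a peak in both MES libraries and in exactly 1 of the other 6. ESC replicate 2 was that library for 2655 of them, CP replicate 2 for 1896, CP replicate 1 for 1491, ESC replicate 1 for 589, CM replicate 1 for 435 and CM replicate 2 for 100. ESC replicate 2, with the longest of these lists, was the library most often involved, and CM replicate 2, with the shortest, the least often. Between these the order did not follow list length throughout. ESC replicate 1 (103118 peaks) was involved less often than CP replicate 1 (99789 peaks). The part of list length was not tested. The median lower −log10 q in MES of the 7166 regions was 8.05. The weakest regions inside the rule, nearest to SPACA1, TTC6 and NFIC, had a lower −log10 q of 2.51, 2.51 and 2.46.

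The strongest MES-only regions were ranked by the lower of both −log10 q. Among the first 10, the region nearest to FAT4, an atypical cadherin, had a −log10 q of 52.4 and 54.1, that nearest to H3Y1 50.8 and 55.3, that nearest to SYT1, a synaptic vesicle protein, 48.4 and 65.7, and that nearest to DDX10 46.6 and 44.8. FOXP2, EMCN, SH3TC2, EML4 and TMTC2 were nearest to 5 further ones. Their −log10 q ran from 40.6 to 44.4 in replicate 1 and from 42.8 to 73.2 in replicate 2. None of the 10 was within 1 kb of a TSS, and their distances ran from 14.5 kb (EML4) to 712 kb (TMTC2). A T-box match was in 3 of the 10, among them those of H3Y1 and EMCN.

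Short letter patterns that transcription factors prefer were counted within 100 bp of the summit, on both strands. A match is a string of letters and not a measured binding site, and intervals are 95% Wilson intervals that cover counting error only. T-box letters (AGGTGTG) were in 901 MES-only regions, or 11.4% (10.7 to 12.1), against 5.64% of all merged regions, 5.93% of ESC-only, 3.22% of CP-only and 3.60% of CM-only regions. The same letters read backwards (GTGTGGA), a control for base composition, were in 3.94% of MES-only regions. GATA letters (AGATAAG) were in 827, or 10.5% (9.81 to 11.2), against 4.74% of all merged regions and 2.23% of ESC-only regions. CP-only and CM-only regions held them as often, at 10.5% (9.22 to 11.9) and 11% (9.90 to 12.1). The T-box share of the MES-only regions thus lay above that of each other private set, whereas the GATA share was that of the later stages.

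Homeobox letters (TAATTA), the core read by factors such as MIXL1 and LHX1, were in 6.39% of MES-only regions (5.87 to 6.95) against 2.66% of all regions and 2.26% to 3.77% of the other private sets. The forkhead letters (TGTTTAC) of FOXA and FOXC factors were in 6.92% against 3.43% of all regions and 4.70% for the letters read backwards. CP-only regions had 5.95% (5.02 to 7.05), an interval that overlaps that of the MES-only regions (6.38 to 7.50). FOXH1 letters (AATNCACA), the site of the partner through which NODAL signals reach DNA, were in 4.82% (4.37 to 5.32) against 2.91%, with 2.32% backwards. CM-only regions had 3.80% of these (3.17 to 4.55), an overlapping interval, ESC-only 3.62% and CP-only 2.06%. TCF/LEF letters (CTTTGAT), the site of the factors that carry Wnt signals, were in 4.28% (3.85 to 4.75) against 2.59%, and CM-only regions had 4.23% (3.57 to 5.01). At least 1 of the T-box, GATA, TCF/LEF, FOXH1, forkhead and homeobox patterns was in 37.1% of MES-only regions and 19.9% of all merged regions. Being more frequent in MES-only than in all regions did not set these 6 apart. Of the 15 patterns searched, all but TEAD letters (3.37% against 4.32%) and the CTCF pattern (0.506% against 2.03%) were so, SOX letters only just. The pooled share of the 6 was not counted for the other private sets, so it is not shown to be particular to MES.

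Octamer letters (ATTTGCAT), read by POU5F1, were in 2.1% of MES-only regions (1.81 to 2.44), 1.66% of all regions and 5.79% of ESC-only regions. SOX letters (ACAATGG) were in 2.86% of MES-only, 2.81% of all and 5.87% of ESC-only regions. TEAD letters (ACATTCC) were in 3.37% of MES-only regions, below the 4.32% of all regions and the 7.53% of CM-only regions. AP-1 letters (TGANTCA) were in 9.25% against 8.12% of all regions, and in 10.1% of ESC-only, 5.04% of CP-only and 12.6% of CM-only regions. The CTCF pattern, which marks loop anchors, was in 0.506% of MES-only regions and in 4.74% of the MES regions shared with other stages. CDX letters (TTTATNG) were rarer than the same letters backwards (5.83% and 7.94%). E-box letters (CAGATG) were in 18.3% against 16.2% of all regions, with 15.7% of ESC-only, 18.9% of CP-only and 17.2% of CM-only regions. CCAAT letters were in 26.8% against 22.5%, with 26.4%, 20.7% and 21.0% in the same 3 sets. Bicoid-type homeobox letters (GGATTAG) were in 4.51% (4.07 to 4.99) against 2.16%, with 3.94% backwards. CP-only regions had 4.27% of these (3.49 to 5.23), ESC-only 2.02% and CM-only 1.57%. The median GC content of the windows was 48.3% for MES-only, 48.8% for ESC-only, 47.3% for CM-only, 51.7% for CP-only and 64.2% for regions open in all 8 libraries. MES-only, ESC-only and CM-only windows were thus close in composition, while the sets of shared regions were not.

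Some of the patterns changed with the strength of the regions. Split into 4 equal parts by the lower of both −log10 q, the MES-only regions held T-box letters in 9.97% (8.73 to 11.4) of the weakest and 14.2% (12.7 to 15.8) of the strongest part. GATA letters went from 7.39% to 12.3% and homeobox letters from 4.4% to 9.32%, while TEAD letters went from 3.90% to 2.38%. AP-1 letters (8.86% and 9.52%) and E-box letters (18.7% and 19.0%) were close in the weakest and strongest part, and forkhead letters were highest in the third part (8.61%, with 7.04% in the strongest). The median GC content fell from 50.7% to 46.8% over the same 4 parts, and its share in these trends was not tested. Among the 100 strongest regions 17 had T-box and 12 had GATA letters. Matches were somewhat denser near the summit, although only 13.8% of T-box and 15.2% of GATA matches lay within 10 bp of it. Per base of distance there were 6.38 T-box matches within 10 bp of the summit and 4.36 between 51 and 75 bp, and 6.52 and 4.32 GATA matches. T-box and GATA letters were seldom in the same window. Both were in 67 regions (0.848%), and GATA letters were in 7.44% of the regions with T-box letters and 10.9% of those without.

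**Figure D1:**
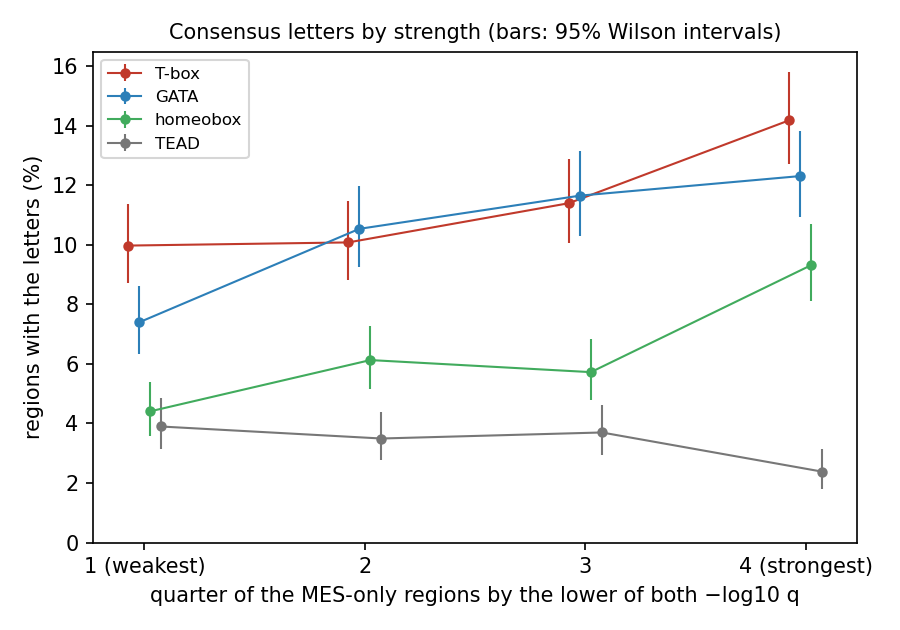
Percent of MES-only regions with T-box, GATA, homeobox and TEAD letters (vertical) in each of 4 equal parts ranked by the lower of both −log10 q (horizontal), with 95% Wilson intervals. T-box letters go from 9.97% in the weakest to 14.2% in the strongest part and TEAD letters from 3.90% to 2.38%.

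Part of the MES-only regions shared longer runs of sequence with each other. This was examined after the sequences of the strongest regions had been seen, and it is a description. For each window all words of 20 bases were listed on both strands, leaving out words of simple composition. A word that also stood in at least 100 other merged regions was in 624 MES-only windows, or 7.90% (7.32 to 8.51), against 2.88% of all merged regions, 4.29% of ESC-only, 2.64% of CP-only and 0.2% of CM-only regions. With at least 20 other regions the MES-only share was 13.7% and the ESC-only share 13.8%, so that at this level the MES-only regions did not stand apart from ESC-only ones.

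The word found in most MES-only regions led to a group of 327 merged regions linked by shared words. Of these, 138 were MES-only, or 42.2% (37 to 47.6), against the 2.76% of all merged regions. The word was picked for its number in MES-only regions, so this share is in part set by that choice. Without MES replicate 1 it was 69.1%. The group had a peak in 229 and 304 regions in MES replicates 1 and 2. The numbers for CP were 50 and 55, those for ESC 7 and 16 and those for CM 2 and 1. Without the MES-only regions themselves, MES still had 91 and 166. Peaks in the group were thus most frequent in MES (70% and 93% of its regions), then in CP (15.3% and 16.8%). The lead of MES follows in part from the choice of the word. MES replicate 2 and ESC replicate 2 have peak lists of like length. When each list was cut to the length of the shortest, 136 and 128 regions of the group were left in MES. For CP 27 and 11 were left, for ESC 3 and 2, and for CM 0 and 1. The 138 MES-only regions lay on 19 chromosomes with 131 different nearest genes, none within 1 kb of a TSS and at a median distance of 127486 bp. Their median −log10 q was 11.3 and 16.8, above the 8.51 and 12.3 of all MES-only regions.

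T-box letters were in 62 of the 138 MES-only regions of the group (44.9%), and GATA letters in 1. Over all 327 merged regions of the group T-box letters were in 127 (38.8%), so they were not limited to its MES-only regions. Of the 41 MES-only regions of the group that held both the leading word and T-box letters in the same direction, 33 had the T-box letters begin 48 bases before the start of the word, and 35 were within 2 bases of this spacing. The leading word occurs 624 times in chromosomes 1 to 22 and X of hg38, 192 of these in a merged region and 83 in a MES-only region. The T-box share of the MES-only regions did not rest on the groups of shared words, since it was 11.3% in the 7372 regions outside all 3 groups that were built.

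A second group held 1516 merged regions, 311 of them MES-only (20.5%, 18.6 to 22.6). MES had peaks in 656 and 1153 of them, ESC in 252 and 452, CP in 170 and 156, and CM in 37 and 11. With lists of equal length these were 297 and 305, 85 and 90, 62 and 40, and 11 and 11. T-box letters were in 7 of its MES-only regions (2.25%) and GATA letters in 35 (11.3%). The region nearest to SYT1, among the strongest 10 of the genome, belonged to this group.

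The third group, of 612 merged regions, was spread more evenly over ESC and MES. It had 81 MES-only regions (13.2%, 10.8 to 16.2) and 44 ESC-only ones, and peaks in 353 and 465 regions in MES and in 334 and 345 in ESC. The 3 groups together made up 529 MES-only regions (6.70%). The reads behind all peaks had been kept only where they mapped with a quality above 30, which removes reads that fit several places equally well, and its part in the numbers was not tested. Repeat annotation was not used here.

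**Figure D2:**
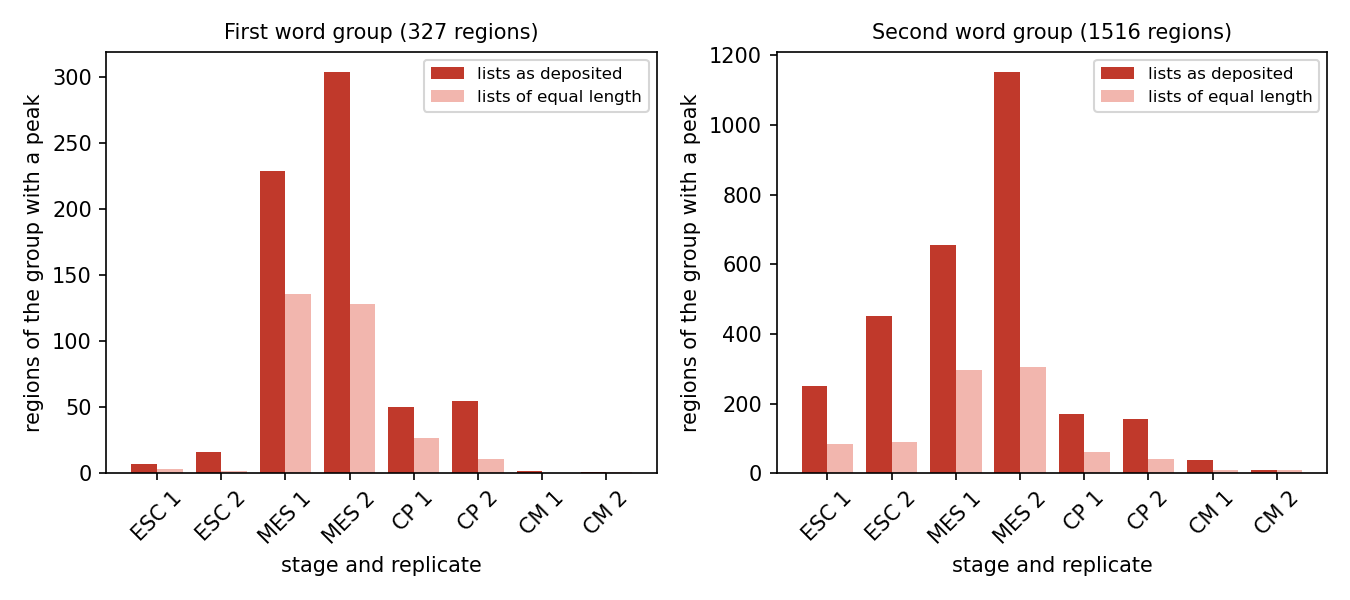
Number of regions of the first (left, 327 regions) and second (right, 1516 regions) group of shared words that had a peak in each library (horizontal), for the lists as deposited and for lists cut to equal length. In the first group MES has 229 and 304 regions, CP 50 and 55, ESC 7 and 16 and CM 2 and 1.

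MES-only regions were mostly far from promoters. Within 1 kb of the TSS of a protein-coding gene lay 168 regions, or 2.13% (1.83 to 2.47), against 8.27% of all merged regions and 20.8% of the MES regions shared with other stages. The other private sets were alike in this, with 2.37% (2.07 to 2.72) of ESC-only, 2.88% of CP-only and 3.2% of CM-only regions. Introns held 3221 (40.8%), the space between genes 4359 (55.2%), coding exons 60 and untranslated exons 93. The median distance to the nearest TSS was 63477 bp, with 65546 bp for ESC-only, 58750 bp for CP-only and 45062 bp for all merged regions. More than 100 kb from any TSS lay 39.8% of MES-only regions, and 9.49% lay more than 500 kb away.

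Of the genes in the pathway lists, 5 had a MES-only region within 1 kb of a TSS, namely CER1, EVX1, TCF7, FGF17 and LFNG. The whole set had 168 regions that close to a TSS, most of them at genes outside the lists. Whether list genes had such regions more often than other genes was not tested. CER1, a secreted antagonist of NODAL and BMP, had one 742 bp from its TSS (−log10 q 15.2 and 21.5). EVX1, a homeobox gene of the posterior streak, had its stronger one of 2 at 20 bp (8.56 and 14.9). TCF7, which binds DNA with beta-catenin under Wnt signaling, had one at 839 bp (11.4 and 8.10), FGF17 had one at 24 bp (8.35 and 10.1), and LFNG, a modifier of Notch, had one at 203 bp (7.83 and 16.6). The folds were 4.30 and 4.75 at CER1 and 4.03 and 3.36 at TCF7. They were 2.53 and 2.88 at EVX1, 2.62 and 2.58 at FGF17 and 2.31 and 2.85 at LFNG. These last 3 lay below the 5th percentile of the set (3.11 and 3.24), over high local backgrounds of 21.1 to 33.4 reads. The strongest promoter regions were those of PRSS2 (28.2 and 40.9), UNC5D (23.2 and 38.3) and CRYM (21.9 and 30.9), which were chosen after their values were seen.

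Regions of the set stood near one another more often than those of the other private sets. Another MES-only region was within 10 kb for 918, or 11.6% (10.9 to 12.3), against 7.89% (7.34 to 8.48) in the ESC-only set, which has more regions, 5.10% in CM-only and 1.82% in CP-only. Within 50 kb the shares were 33.9% for MES-only and 30.7% for ESC-only. Counted as runs with gaps of at most 20 kb, 6437 regions stood alone, 626 runs had 2 regions, 64 had 3 and 5 had 4. A share of this kind grows with the size of the set, and with lists of equal length it was 5.48%, while without MES replicate 1, where the set is larger, it was 26.2%.

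Of the 5 runs of 4 regions, 1 covered 10436 bp on chromosome 8 beside FGF17, which encodes an FGF ligand of the streak. Of 7 merged regions there 5 had peaks in both MES libraries, and FGF17 itself had 5 merged regions nearest to it, 3 of them MES-only. Further runs lay between genes nearest to SNX19 on chromosome 11 and in introns near GALNT17 on chromosome 7 and MIPOL1 on chromosome 14. In the SNX19, GALNT17 and MIPOL1 runs 4 of 5 or 6 merged regions were MES-only. By chromosome, the MES-only share of the regions with both MES peaks was lowest on the gene-rich chromosomes 19 (2.27%) and 17 (5.52%) and highest on X and 21 (both 10.6%).

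Assigned to the nearest TSS, MES-only regions fell to 4191 of the 18152 protein-coding genes that had any merged region (23.1%). Of these, 2511 had 1 region and 265 had 5 or more, the latter with 1766 regions (22.4%). Those 265 genes had 32685 merged regions nearest to them, 5.40% of which were MES-only, as follows in part from picking them by number. The genes with most MES-only regions had 178 to 270 merged regions each. CTNNA2, a catenin of neuronal cell contacts, had 17 of 222 merged regions, spread from 1995 bp to 1938989 bp from its TSSs, with folds of 4.24 to 7.47 in replicate 1. ROBO1, a guidance receptor, had 15 of 202, CELF4, an RNA-binding protein, 15 of 270, and SORCS1 14 of 231. CDH2 (N-cadherin, which replaces E-cadherin in ingressing mesoderm), ADGRL2, CDH8 and TENM2, all adhesion proteins, had 13 each, of 180 to 220 merged regions. CNTN5 and FLRT2, also surface proteins of cell contact, had 12 each. For these 10 genes 4.96% (FLRT2) to 7.66% (CTNNA2) of the merged regions were MES-only, against 2.76% of all regions, as follows in part from ranking by number. T-box letters were in 6 of the 13 regions at TENM2, in 3 of the 17 at CTNNA2 and in 0 or 1 at each of the others.

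Genes of the pathways active at this stage were not set apart by the number of MES-only regions near them. The streak and early mesoderm factors had a MES-only region at 13 of 26 genes, 23 of 845 merged regions or 2.72% (1.82 to 4.05), against the 2.76% of all regions. FOXF1, a forkhead factor of lateral mesoderm, had 4, the strongest of them 197 kb away (−log10 q 23.1 and 23.8). SP5, a direct Wnt target, and TBX3 had 3 each. LHX1 had 1 region, 24.2 kb away, with 23.1 and 24.6. The Wnt list had regions at 15 of 24 genes, 31 of 940 (3.30%, 2.33 to 4.64). RSPO3, a Wnt enhancer, had 4, and WNT5A, TCF7L1 and FZD7 had 3 each. The strongest of the Wnt list was nearest to TCF7L2, 138 kb away, with 28.5 and 33.1. The NODAL and BMP list had 23 of 830 (2.77%, 1.85 to 4.12). ID2, a BMP target, had 4 and SMAD3, the NODAL effector, 3, and 1 each was nearest to NODAL, in an intron 3.77 kb away (11.1 and 16.2), and to LEFTY2, its antagonist, 17.0 kb away (13.7 and 21.2).

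The FGF list had 22 of 741 (2.97%, 1.97 to 4.45), with 4 each at SPRY1 and SPRY2, feedback inhibitors of FGF signals. The strongest SPRY1 region, 295 kb away, had 28.1 and 46.0. The adhesion list had 37 of 1006 (3.68%, 2.68 to 5.03), of which CDH2 had 13, CXCL12, a chemokine, 6 and NCAM1 5. The strongest CDH2 region lay 7.32 kb from its TSS with 15.8 and 30.4, and CDH1, the E-cadherin gene, had 1 weak region with 4.66 and 5.99. The presomitic and Notch list had 11 of 236 (4.66%, 2.62 to 8.15), 3 of them among the 10 merged regions of RIPPLY2, a regulator of somite boundaries, with up to 22.1 and 23.2. The strongest of this list was nearest to HEY1, a Notch target, 106 kb away with 30.5 and 31.5. A single one was nearest to PAX3, a factor of dorsal somites, 243 kb away with 24.3 and 21.1.

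Lists of other fates had shares of the same order. The heart list had 22 of 565 (3.89%, 2.59 to 5.83), with 7 at MEF2C, 5 at TBX20 and 4 at ISL1, and none at TNNT2, MYH6 or MYL7. The strongest region at ISL1, a progenitor factor of the second heart field, lay 301 kb away with 24.2 and 24.2. The neural list had 19 of 457 (4.16%, 2.68 to 6.40), with 4 at SIX3 and 3 at PAX6, factors of the forebrain and eye, and the endothelium and blood list 11 of 308 (3.57%, 2.01 to 6.28), with 5 at CDH5 and 3 at RUNX1. The endoderm list had 11 of 405 (2.72%, 1.52 to 4.8), the pluripotency list 8 of 328 (2.44%, 1.24 to 4.74) and the HOX clusters 2 of 156 (1.28%, 0.352 to 4.55), at HOXD1 and HOXD3. All 12 intervals held the 2.76% of all merged regions.

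Whether the sequence pattern of the MES-only regions extended to regions open at every stage was tested on 28115 other regions, those with a peak in all 8 libraries, which the rule for MES-only regions leaves out. For each library the median log2 fold of the regions with a consensus was compared with that of the regions without it, over the 14309 regions more than 1 kb from a TSS, and both MES libraries were set against the other 6 by an exact two-sided permutation test over all 28 choices of 2 libraries, which can give no p below 0.0357. For T-box letters (589 regions) the difference was 0.026 and −0.019 in MES replicates 1 and 2, 0 and −0.0041 in ESC, with −0.026 and −0.094 at the CP and −0.064 and −0.10 at the CM stage. The MES mean exceeded the mean of the others by 0.052 (exact permutation p = 0.214, Benjamini-Hochberg adjusted over 4 tests 0.429). The MES values overlapped those of ESC.

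For TCF/LEF letters (291 regions) the difference was 0.028 and 0.012 in MES, −0.016 and 0.0085 in ESC and −0.071 to −0.034 in CP and CM. Both MES libraries were above all 6 others, by 0.052 in the mean (exact permutation p = 0.0357, the smallest possible, adjusted 0.143). This difference did not pass the threshold after adjustment, but a consensus test alone at the smallest p could not have passed. The adjusted value thus does not decide whether MES differed for TCF/LEF letters. GATA letters had 0.032 and 0.035 in MES, between −0.19 and −0.17 in ESC and 0.037 to 0.12 in CP and CM (exact permutation p = 0.964, adjusted 0.964). Octamer letters had 0.079 and −0.0033 in MES, within the range of the others (−0.12 to 0.068) or just above it (exact permutation p = 0.357, adjusted 0.476). Regions nearest to the 265 genes with 5 or more MES-only regions were stronger than the rest by 0.042 and 0.074 in MES and by −0.14 to 0.066 in the other libraries, a difference of 0.08 (exact permutation p = 0.25). These genes were picked by peaks called in the same 2 MES libraries, so the gene set of this test was not independent of them. None of the 5 tests passed. With 2 libraries against 6 an exact permutation test can pass only where no other pair of libraries differs as much. For the consensus tests, which were adjusted together, several had to reach the smallest p at once for any to pass. Nothing in the labels says that the libraries of a stage came from separate differentiations, so that these p-values measure the spread between libraries, which may be technical.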

How the data were processed

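ATAC-seq was analysed in RUES2 cells at 4 stages with 2 libraries each, from the peak lists as deposited. Per the labels and the study's methods, the authors mapped reads to hg38 with BWA-MEM 0.7.13, filtered for a mapping quality above 30, took out duplicates (Picard) and ran MACS2 2.1.0 on each library without pooling (no model, q of 0.01, shift of 100 bp, extension of 200 bp). The deposited columns used were the fold over background (the ratio of pileup to local background, with 1 added to both) and the −log10 p and −log10 q. The deposited display score was not used. The lists hold no read totals. Pileup and background at each summit were recovered from fold and −log10 p, to within 0.001 for 100% of peaks.

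Peaks on chromosomes 1 to 22 and X were merged with bedtools 2.31.1 (overlap or contact), and each library's peak of highest −log10 q was taken per region. Distances are from the region's midpoint to TSSs of protein-coding transcripts of GENCODE 44, and the nearest TSS names a gene without showing that it is controlled by the region. Consensus letters were searched in 201 bp around the summit of the strongest peak. Words of 20 bases needed at least 6 different neighbouring pairs of bases. A group started from the word in most MES-only windows and took in every word held by at least 10% of its regions, at most 10 times over. A group was joined to an earlier one where they shared over 0.5 of the regions of the smaller (6 rounds, 3 groups kept). Sequences come from the hg38 FASTA, and those on chromosome 8 were not printed.

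The genes named were all list genes with a MES-only region (2 to 4 examples, most regions first), the 10 genes with most regions, the 10 strongest regions and the 5 longest runs. The members and lists were chosen with earlier results of these data known. Replicate numbers were not taken to pair the libraries, since not every pair of stages deviated together: replicate 1 deviations from the stage means correlated at 0.129 to 0.192 among ESC, MES and CP and at −0.119 to 0.000132 between these and CM. Alternatives were each library left out, lists of equal length, peaks of a −log10 q of at least 5, no merging, a distance of 500 bp from peaks of other stages, and other windows, TSSs, distances, measures and region choices. Scripts used pysam 0.24.0, scipy 1.17.1, matplotlib 3.10.9, pandas 2.3.3 and numpy 2.4.6 in Python 3.11.15 and were tested on simulated data. Certain genes and sequences that the rule for names would give are not reported here.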

Additional observations from a re-analysis of the deposited data

How the results depend on the processing

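The number of MES-only regions depended on the lists more than on the way regions were made. It was 3945 with lists of equal length (7901 as reported), 7923 with a −log10 q of at least 5, 8466 without merging and 6764 with no peak of another stage within 500 bp. Leaving out 1 library gave 8001 to 33296 regions, with 33296 without MES replicate 1 and 14590 without MES replicate 2, where 1 list alone had to show the peak. The T-box share was 12.2% with lists of equal length and 8.39% to 11.4% with 1 library left out, above the 5.64% reported for all merged regions. The share within 1 kb of a TSS was 2.47% without merging, 1.54% with no peak of another stage within 500 bp, 3.56% for TSSs of all annotated genes and 2.12% to 2.91% with 1 library left out. The share with another region within 10 kb was 5.48% with lists of equal length, 13.6% without merging, 10.6% with no peak of another stage within 500 bp, 33.9% within 50 kb and 11.7% to 26.2% with 1 library left out (26.2% without MES replicate 1, 16.4% without replicate 2). The first group of shared words, examined with alternatives chosen after seeing the data, was 42.2% to 69.1% MES-only with 1 library left out (69.1% without MES replicate 1), 43.8% at a −log10 q of at least 5 and 48.1% with lists of equal length. None of the 5 tests of strength passed under the alternatives, which says nothing about stability where 1 MES library was left out, since no p below 0.143 was then possible. With 1 library of another stage left out, the smallest exact permutation p was 0.0476. Of the 4 adjusted tests, 1 alone at this value could not pass, since it became 0.19 (TCF/LEF without ESC replicate 1). Near genes with 5 or more MES-only regions the difference was −0.031 at regions within 1 kb of a TSS, the reverse of 0.08 over all regions, and the cause was not tested. With a replicate block (16 assignments, smallest p 0.0625) no test could pass 0.05, and the differences are the same by construction (0.052 for T-box and TCF/LEF, 0.043 for GATA, 0.057 for octamer and 0.08 near genes). The lists give no depth beyond the recovered pileups, and sites below 10 to 15 reads were not called.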
